A study of Mus musculus with 18 samples.

Results

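Hox genes encode homeodomain transcription factors that give cells their position along the body axis. The mouse genome carries them in 4 clusters, Hoxa, Hoxb, Hoxc and Hoxd, and each gene also belongs to a paralog group, numbered by its place in the cluster. Members were all genes whose annotated symbol is Hox, a cluster letter and a number, each measured by its brightest probe set (the highest mean value) among those assigned to exactly 1 gene symbol. That rule found 33 of the 39 Hox genes in the RefSeq gene table, out of 18194 genes measured in the same way. They were 9 of 11 Hoxa genes, 9 of 10 Hoxb genes, 7 of 9 Hoxc genes and 8 of 9 Hoxd genes. Hoxb8 shared its probe set with Hoxb7 and Hoxd4 shared its probe sets with Hoxd3, so neither was a member. The remaining Hox genes were not analysed here. In the GRCm38.p6 table the Hoxa members lie on chromosome 6, Hoxb on 11, Hoxc on 15 and Hoxd on 2.

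Expression was measured at postnatal day 8 in RNA from the whole brain. Pups of 3 genotypes came from crosses on the C57BL/6J background and carried the metallothionein knockout on no allele (wild-type, +/+), on 1 (heterozygous, +/-) or on both (Mt-KO, -/-). Metallothioneins are small cysteine-rich proteins that sequester metals, lead among them. Pups received lead acetate at 50 mg/kg, or saline, injected 2 times daily with 4 h between, at postnatal day 7 and again at day 8, and were killed 6 h later. RNA of 5 pups, described as male and female, was pooled for each genotype and treatment and hybridised to 1 Affymetrix array. The 6 arrays therefore hold 1 pool for each combination and no replicate pool. The design asks whether acute lead exposure changes expression in the developing brain and whether the change depends on metallothioneins. Values are RMA values on a log2 scale unless stated otherwise. In bulk tissue, fewer cells of a type and less RNA per cell cannot be told apart.

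The arrays carried the labels' tissue and genotype. Neuronal Snap25 (13.63 to 14.01) and Syt1 (14.00 to 14.62) and glial Gfap (12.15 to 12.62) and Mbp (13.61 to 14.72) were high in all 6 pools. The metallothionein Mt1 measured 13.17 with saline and 13.30 with lead in wild-type pups, 12.45 and 12.87 in heterozygotes and 11.68 and 11.71 in Mt-KO pups. Array medians over all probe sets were 9.10 to 9.15. Bright genes shifted between arrays and dim genes did not follow them. The median lead minus saline difference of the brighter 60% of genes was -0.18 in wild-type, 0.15 in heterozygotes and 0.09 in Mt-KO, against 0.03, 0.02 and -0.05 for the dimmer genes. For this reason differences are given as deposited and again after quantile normalization, which forces the 6 RMA columns to 1 distribution. Apart from these shifts, a pair of pools differed from the rest. The 3' Gapdh probe set, which checks RNA integrity against the 5' one, exceeded it by 1.19 for wild-type saline and by 0.54 to 0.82 elsewhere. Growth hormone, Gh, a pituitary transcript, measured 11.48 in heterozygous lead against 9.29 to 9.83 elsewhere.

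The order of Hox genes along a cluster follows the order of the body levels at which they are active. Groups 1 to 3, here called anterior, act in the segments of the hindbrain. Groups 4 to 8, here called central, act from the caudal hindbrain into the cervical and upper thoracic spinal cord, and groups 9 to 13, here called posterior, act in the trunk and lumbosacral cord and in limbs and the genital region. Forebrain and midbrain normally lack Hox expression. In hindbrain and spinal cord, Hox proteins specify motor and sensory neuron types, with TALE homeodomain proteins (Pbx, Meis) as DNA-binding cofactors, retinoic acid as an inducer, and Polycomb proteins as repressors. The members comprised 7 anterior, 12 central and 14 posterior genes.

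The sequence next to the start site is shown for Hoxa5, the member on which the calls below rest, and for Hoxa7, the neighbouring member of the same cluster, to set the 2 side by side. Each is the 250 bases before the gene start, from RefSeq on GRCm38.p6, minus strand. The first lies at chr6:52204588-52204837 and the second at chr6:52218574-52218823. Capitals mark a CCAAT box read on the other strand.
Hoxa5: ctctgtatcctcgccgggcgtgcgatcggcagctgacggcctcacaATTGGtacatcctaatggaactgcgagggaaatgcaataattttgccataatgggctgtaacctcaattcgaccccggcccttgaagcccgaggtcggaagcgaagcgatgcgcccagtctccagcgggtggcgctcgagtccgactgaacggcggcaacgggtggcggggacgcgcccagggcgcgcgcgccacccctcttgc
Hoxa7: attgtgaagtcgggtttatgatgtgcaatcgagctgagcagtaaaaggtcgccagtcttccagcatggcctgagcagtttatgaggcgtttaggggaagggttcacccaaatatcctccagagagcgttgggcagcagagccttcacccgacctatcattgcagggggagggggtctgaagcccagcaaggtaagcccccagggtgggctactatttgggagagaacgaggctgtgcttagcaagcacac
Motifs were searched on both strands: the TATA box TATAAA, the CCAAT box, the GC box GGGCGG, the Pbx and Hox motif TGATNNAT and the nuclear receptor half-site AGGTCA. In promoters of the same length, these letters occurred in 12.4%, 33.8%, 32.7%, 7.68% and 14.0% of 32851 entries. The Hoxa5 sequence held 1 match, the CCAAT box, starting 204 bases before the start. The Hoxa7 sequence held none of the 5. The table had an entry for 22 Hox genes, of which 19 were members.

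Signal from most Hox genes was low, and with RMA it varied little over the 6 pools. The brighter 60% of genes (mean value above 9.417) included 8 members, Hoxa3, Hoxa5, Hoxa7, Hoxa9, Hoxb3, Hoxc5, Hoxc6 and Hoxc9, and left out the other 25. Hoxc6, at a mean of 9.50, was just inside that limit and Hoxa11, at 9.40, was just outside. Hoxa5 was the only member in the brighter 40%. GC-RMA, which subtracts the nonspecific binding modelled from each probe's base composition, also gave low values. On that scale 1 of 33 members, Hoxa5, exceeded 5 in any pool, against 54.0% of all genes. The level of 5 was chosen after seeing the data. The difference between the highest and lowest pool ranged from 0.09 in Hoxc8 to 1.21 in Hoxa5, with a median of 0.24, against 0.31 over all genes and 0.26 over the dimmer genes. It exceeded 1 in 1 of 33 members, Hoxa5, and in 0.577% of all genes. It exceeded 0.5 in 5 of 33 members (Hoxa5, Hoxb5, Hoxc5, Hoxd12 and Hoxd13) and in 14.6% of all genes, and after quantile normalization in 5 members and in 8.27% of genes.

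**Figure D1:**
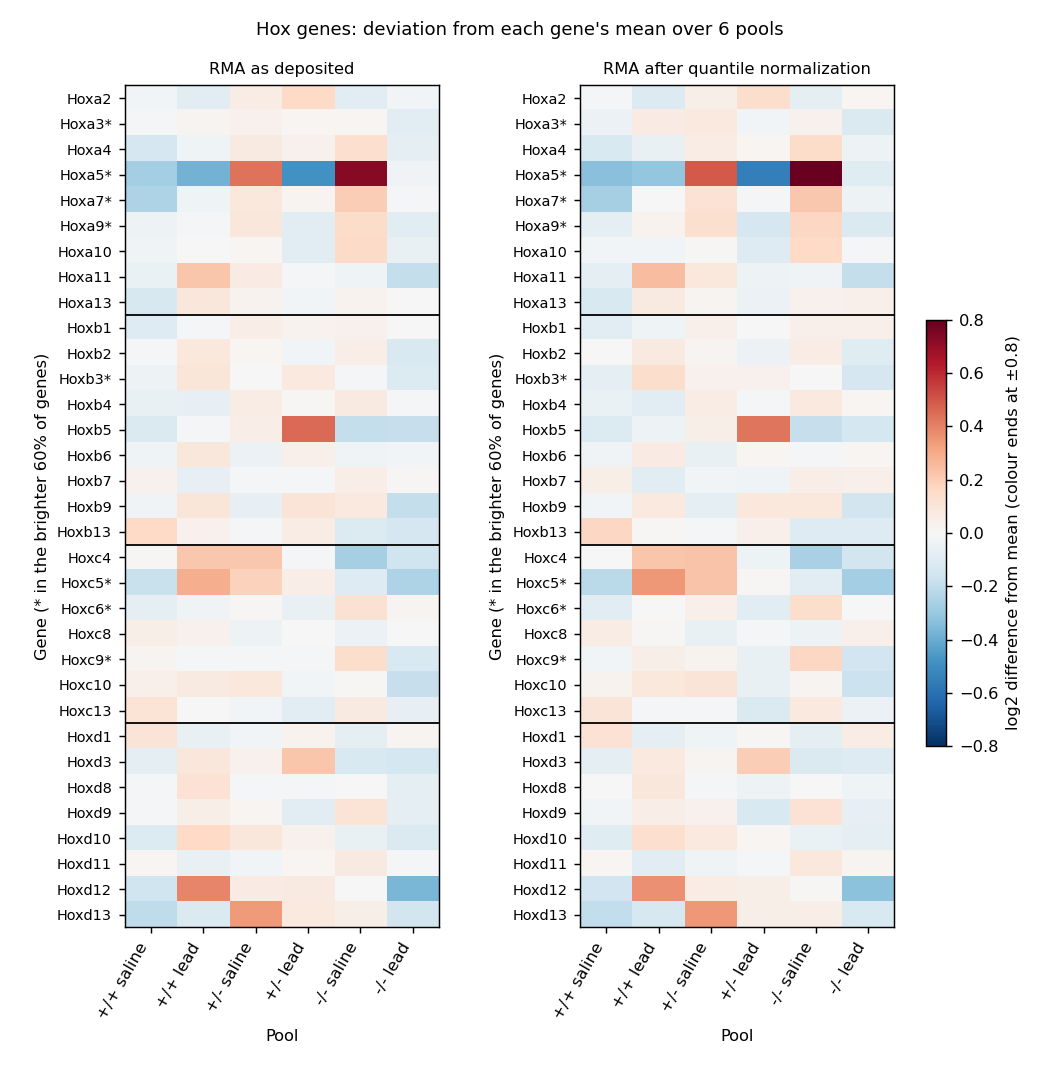
Each row is 1 of the 33 members, ordered by cluster and paralog group, and each column is 1 pool; colour gives the log2 difference of that pool from the gene's mean over the 6 pools, before (left) and after (right) quantile normalization. Most rows are pale, and Hoxa5, with a range of 1.21, has the deepest colours.

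Hoxa5 is a central gene that patterns the caudal hindbrain and cervical cord and is needed for normal lung and diaphragm development. It was the member that varied most with RMA and with GC-RMA. With PLIER, the ranges of Hoxd13 (2.96) and Hoxa10 (2.27) were larger than that of Hoxa5 (1.77). The Hoxa5 probe set 1443803_x_at measured 10.49 with saline and 10.39 with lead in wild-type pups, 11.20 and 10.28 in heterozygotes and 11.49 and 10.74 in Mt-KO. The heterozygous and Mt-KO saline pools were the highest of the 6, and the 3 lead values overlapped the wild-type saline value. Lead minus saline was -0.11 in wild-type, -0.92 in heterozygotes and -0.76 in Mt-KO as deposited. After quantile normalization and relative to the median gene of the pair, as for all such differences below, it was 0.02, -1.04 and -0.87. The wild-type pair thus differed little on either scale, and both other pairs were lower with lead. Relative to the median gene of each pair, the mean difference was -0.61 ± 0.52 (SD, n = 3 pairs), and the exact sign-flip permutation test, two-sided, gave p = 0.25, the smallest value that 3 pairs allow.

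Genes in the brighter 60% were tested with limma across all 10916 genes, with genotype as a block for lead and treatment as a block for genotype. No pool was replicated, so the p-values of these fits rest on what the model left over. In the main fits limma took that spread from genes of similar brightness and not from the gene itself. Hoxa5 fell with lead by 0.60 (SE 0.13, adjusted p = 0.0056) and rose in Mt-KO over wild-type by 0.67 (SE 0.16, adjusted p = 0.0089). This was 1 of 8 members called for lead and 1 of 8 for Mt-KO, against 0.119% and 0.431% of all genes tested. The heterozygous minus wild-type coefficient was 0.30 (SE 0.16, adjusted p = 1), and 0 of 8 members were called for it, with 0 also at an unadjusted p of 0.05, against 0.119% of all genes called. After quantile normalization the Hoxa5 coefficients were of similar size, -0.63 for lead (adjusted p = 0.912) and 0.67 for Mt-KO (adjusted p = 0.447), and neither passed. Nor did either Hoxa5 coefficient pass when the spread was not fitted to brightness. The lead call was also absent without the heterozygous pair (-0.43, adjusted p = 1) or without the Mt-KO pair (-0.52, adjusted p = 1), and without the wild-type pair it was -0.84 (adjusted p = 5.6e-07) in a fit that called 2632 of all genes. The Mt-KO coefficient was 0.31 without the wild-type saline array, the pool with the largest Gapdh 3' excess, and 1.04 without the wild-type lead array, and both passed (adjusted p = 0.0195 and 1.8e-07) in fits that called 2429 and 4380 genes. Without any 1 of the other 4 arrays it did not pass (adjusted p from 0.397 to 1).

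A second Hoxa5 probe set did not show this pattern. The suffix _x_at marks a probe set some of whose probes may also match other transcripts, whereas 1448926_at carries no such mark. Probe set 1448926_at measured 7.26 with saline and 7.19 with lead in wild-type pups, 7.22 and 7.53 in heterozygotes and 7.22 and 7.11 in Mt-KO pups. Its highest pool was heterozygous lead, which was the lowest pool for 1443803_x_at. On the GC-RMA scale it ranged from 2.55 to 2.79, while 1443803_x_at measured 8.36, 8.33, 9.35, 8.26, 10.03 and 8.49 in the same order of pools. PLIER, on a linear scale, gave 1443803_x_at intensities of 579 and 642, 1208 and 550, and 1915 and 963, so the order of the saline pools was the same under all 3 summaries. With every probe set of 1 symbol in the fit, a choice made after seeing the data, the lead coefficient was -0.60 (SE 0.16, adjusted p = 1) for 1443803_x_at and 0.04 (SE 0.10, adjusted p = 1) for 1448926_at. The Mt-KO coefficients were 0.67 (SE 0.19, adjusted p = 0.501) and -0.06 (SE 0.12, adjusted p = 1). Whether the probes of 1443803_x_at bind another transcript was not tested.

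**Figure D2:**
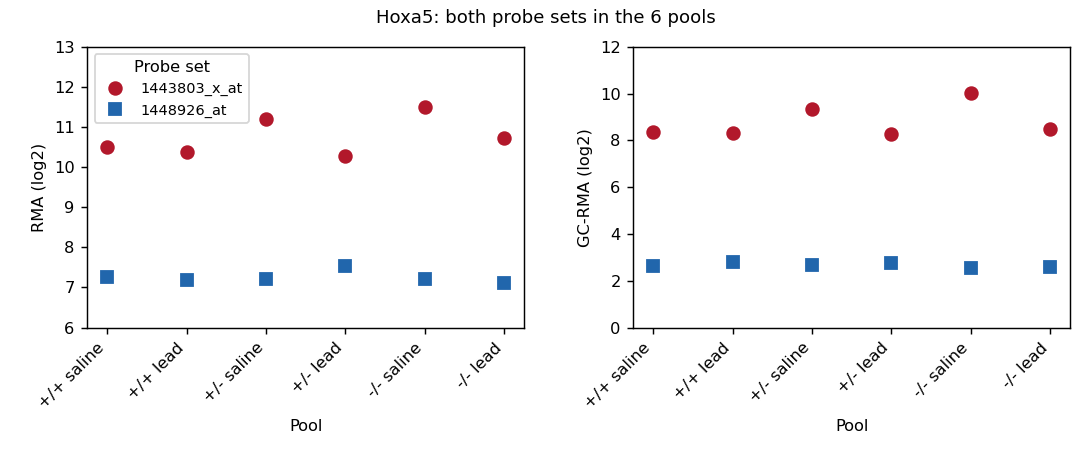
Points give the value of each Hoxa5 probe set in each of the 6 pools, with RMA on the left and GC-RMA on the right (log2 axes that do not start at a common value; the level of 1 probe set cannot be set against that of the other). The 1443803_x_at points are highest in the heterozygous (+/-) saline and Mt-KO (-/-) saline pools at 11.20 and 11.49, and the 1448926_at points lie between 7.11 and 7.53 with heterozygous lead on top.

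The other members of paralog group 5 differed from Hoxa5 in which pools were high. Hoxc5, which acts together with Hoxa5 in phrenic motor neurons of the cervical cord, measured 9.66 with saline and 10.13 with lead in wild-type pups, 10.03 and 9.89 in heterozygotes and 9.74 and 9.59 in Mt-KO pups. It was highest with lead in wild-type and lower with lead in both other genotypes, by -0.22 and -0.16 after quantile normalization against 0.55 in wild-type. Its lead coefficient was 0.06 (adjusted p = 1). Hoxb5, which is active in vagal neural crest and the enteric nervous system, measured 7.59 and 7.69 in the wild-type pools, 7.76 and 8.16 in the heterozygous pools and 7.52 in both Mt-KO pools. The heterozygous lead pool exceeded the next by 0.40. Hoxb5 was below the limit for the test, and on the GC-RMA scale it ranged only from 2.27 to 2.38.

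Of the remaining central genes, 2 were tested and neither passed. Hoxa7, active in the upper trunk, measured 9.41 with saline and 9.62 with lead in wild-type pups, 9.74 and 9.67 in heterozygotes and 9.85 and 9.63 in Mt-KO pups. As in Hoxa5, the Mt-KO saline pool was the highest with RMA, and also with PLIER (456). With GC-RMA, Hoxa7 was highest in Mt-KO lead and lay between 1.40 and 1.47. Hoxc6, a marker of motor neurons at forelimb level, measured 9.43 and 9.47, 9.51 and 9.44, and 9.62 and 9.52. It varied by 0.19 in all. Hoxc4, a cervical-level gene below the limit, measured 8.92 and 9.13 in wild-type, 9.13 and 8.91 in the heterozygote and 8.65 and 8.76 in Mt-KO, so its Mt-KO pools were the lowest pair. Hoxb6 was the only member whose 3 lead values all exceeded its 3 saline values (7.15, 7.10 and 7.03 against 7.02, 7.01 and 7.03), and the Mt-KO pair differed only beyond the digits shown. This was 1 of 33 members against 3.44% of all genes, and 0 of 33 had all lead values below, against 2.57%. After quantile normalization the counts were again 1 above, Hoxb6, and 0 below, against 3.66% and 5.41%. GC-RMA gave 7 above and 0 below, against 12.7% and 0.94%, and PLIER gave 0 above and 3 below, against 3.34% and 2.05%. The 7 were all among the 25 members below the limit, and 21.9% of all genes below it were above with GC-RMA. The Hoxb6 mean difference relative to the median gene was 0.06 ± 0.13 (SD, n = 3 pairs; exact sign-flip permutation p = 0.75, two-sided).

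The anterior genes varied little with RMA. Hoxa3, needed for thymus and parathyroid formation as well as hindbrain patterning, measured 9.88 with saline and 9.91 with lead in wild-type pups, 9.92 and 9.90 in heterozygotes and 9.90 and 9.80 in Mt-KO pups. Hoxb3, a gene of the middle hindbrain segments, measured 9.82 and 9.96, 9.86 and 9.94, and 9.85 and 9.76 with its brightest probe set, 1427605_at. In both genes lead minus saline changed sign between pairs. The other 5 anterior members, Hoxa2, Hoxb1, Hoxb2, Hoxd1 and Hoxd3, were below the limit.

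Among posterior genes Hoxa9 and Hoxc9 were bright enough to test and neither passed. Hoxa9, a trunk gene also known from blood progenitors and leukaemia, measured 9.82 with saline and 9.85 with lead in wild-type pups, 9.95 and 9.77 in heterozygotes and 10.01 and 9.77 in Mt-KO pups. Hoxc9, which sets the thoracic identity of motor neurons, measured 10.16 and 10.13, 10.12 and 10.13, and 10.28 and 10.01. In both, Mt-KO saline was the highest RMA pool. With PLIER this held for Hoxc9 (591) and not for Hoxa9, which was highest in wild-type saline (392). With GC-RMA it held for neither, as Hoxa9 was highest in wild-type lead (2.19) and Hoxc9 in Mt-KO lead (1.71). Hoxa11, a gene of the middle limb segment and the uterus, measured 9.34 with saline and 9.62 with lead in wild-type pups, 9.47 and 9.39 in heterozygotes and 9.36 and 9.21 in Mt-KO pups, with wild-type lead on top. Wild-type saline was instead its highest pool with PLIER (1694, against 1529 in wild-type lead) and with GC-RMA (3.53 against 3.49). Hoxd12, a digit and genital gene, measured 7.21 with saline and 7.76 with lead in wild-type pups, 7.43 and 7.44 in heterozygotes and 7.37 and 7.00 in Mt-KO pups. It was thus higher with lead in wild-type, level in the heterozygote and lower with lead in Mt-KO. Hoxd13, also a digit gene, was highest in the heterozygous saline pool with RMA, at 8.83 against 8.29 to 8.56. With PLIER it was highest in Mt-KO saline (876, against 500 in heterozygous saline), and with GC-RMA in Mt-KO lead (2.00). A second Hoxd13 probe set, 1440626_at, was highest in wild-type lead with RMA (7.70).

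Among the 8 tested members, quantile-normalized values gave 0 calls for lead, Mt-KO, heterozygote and interaction, against 0.0%, 0.00916%, 0.0% and 0.00916% of all genes. GC-RMA also gave 0 calls, against 0.0% of all genes for each. PLIER gave 0, 2 (Hoxa5 and Hoxa7), 0 and 1 (Hoxa5), against 0.119%, 0.623%, 0.0916% and 1.3%. Over the tested members other than Hoxa5, lead coefficients ran from -0.13 in Hoxa9 to 0.06 in Hoxc5 and Mt-KO coefficients from -0.23 in Hoxc5 to 0.23 in Hoxa7, none of which passed. The interaction of lead with the number of intact metallothionein alleles was called in 0 of 8 members, with 3 at an unadjusted p of 0.05, against 3.77% of all genes called and 20.1% at that unadjusted p. The unadjusted shares for lead, Mt-KO and the heterozygote were 1.53%, 3.5% and 1.2% of all genes, with 1, 1 and 0 of 8 members. The largest coefficients were 0.32 per allele in Hoxa5 (SE 0.12, adjusted p = 0.0862) and 0.31 in Hoxc5 (SE 0.11, adjusted p = 0.0769). With no brightness filter, so that all 33 members entered with all 18194 genes, 0 were called for lead, Mt-KO or the heterozygote, against 0.0%, 0.033% and 0.0% of all genes, with 1, 3 and 2 members at an unadjusted p of 0.05 against 1.59%, 3.03% and 1.54% of all genes. For the interaction 1 member, Hoxd12, was called there (0.46 per allele, adjusted p = 0.0216), against 0.506% of all genes. After quantile normalization it was 0.43 (adjusted p = 0.241), and 0 of 33 members were called for any of the 4 coefficients, as were 0.0% of all genes.

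With RMA, the median member was higher with lead in wild-type and lower with lead in both other genotypes, as was the median dim gene, by less. Relative to the median gene of each pair, the median member differed with lead by 0.18 in wild-type, -0.13 in the heterozygote and -0.14 in Mt-KO, and the median of the genes below the limit by 0.12, -0.07 and -0.09. After quantile normalization the member medians were 0.07, -0.07 and -0.12, and those of the genes below the limit were 0.015, -0.0074 and -0.0099. On that scale 24, 10 and 11 of 33 members were higher with lead, against 54.1%, 47.7% and 46.6% of the genes below the limit. With GC-RMA the dim genes differed about as much as the members. The medians were 0.12, -0.02 and -0.03 for members and 0.14, -0.02 and -0.02 for the genes below the limit. With PLIER they were 0.32, -0.18 and -0.15 against 0.17, -0.11 and -0.12. With RMA, interaction coefficients with no filter were above 0 in 28 of 33 members, against 37.6% of all genes and 64.2% of the genes below the limit. Mt-KO saline was the highest pool for 11 members and wild-type lead for 10, against 10.7% and 13.9% of all genes and 17.0% and 24.6% of the genes below the limit. Mt-KO lead was the highest pool for 0 members, against 12.5% and 8.52%, and the lowest for 14, against 17.9% and 31.0%. After quantile normalization it was the lowest pool for 9 members, against 20.3% of all genes and 21.8% of the genes below the limit. No test was run on these counts.

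Medians by cluster and by body level lay close together with RMA when the 3 pairs were averaged. Averaged over the 3 pairs, the median lead difference was -0.04 for Hoxa, 0.00 for Hoxb, -0.06 for Hoxc and -0.01 for Hoxd, relative to the median gene. By paralog class it was 0.00 for anterior, -0.02 for central and -0.07 for posterior genes. After quantile normalization these medians were -0.04, 0.01, -0.05 and 0.01 by cluster and 0.01, -0.01 and -0.06 by class. With GC-RMA all were above 0, at 0.05, 0.01, 0.03 and 0.05 by cluster and 0.04, 0.04 and 0.02 by class. With PLIER they ran from -0.14 for Hoxa to -0.03 for Hoxd and from -0.11 for posterior to 0.05 for central genes. The averages join pairs of opposite sign. In the Mt-KO pair alone, RMA medians ran from -0.25 for Hoxa to -0.08 for Hoxb and from -0.22 for posterior to -0.07 for anterior genes. Where a gene had several probe sets, as 11 members had, the lead coefficients of all of them shared a sign in 6.

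**Figure D3:**
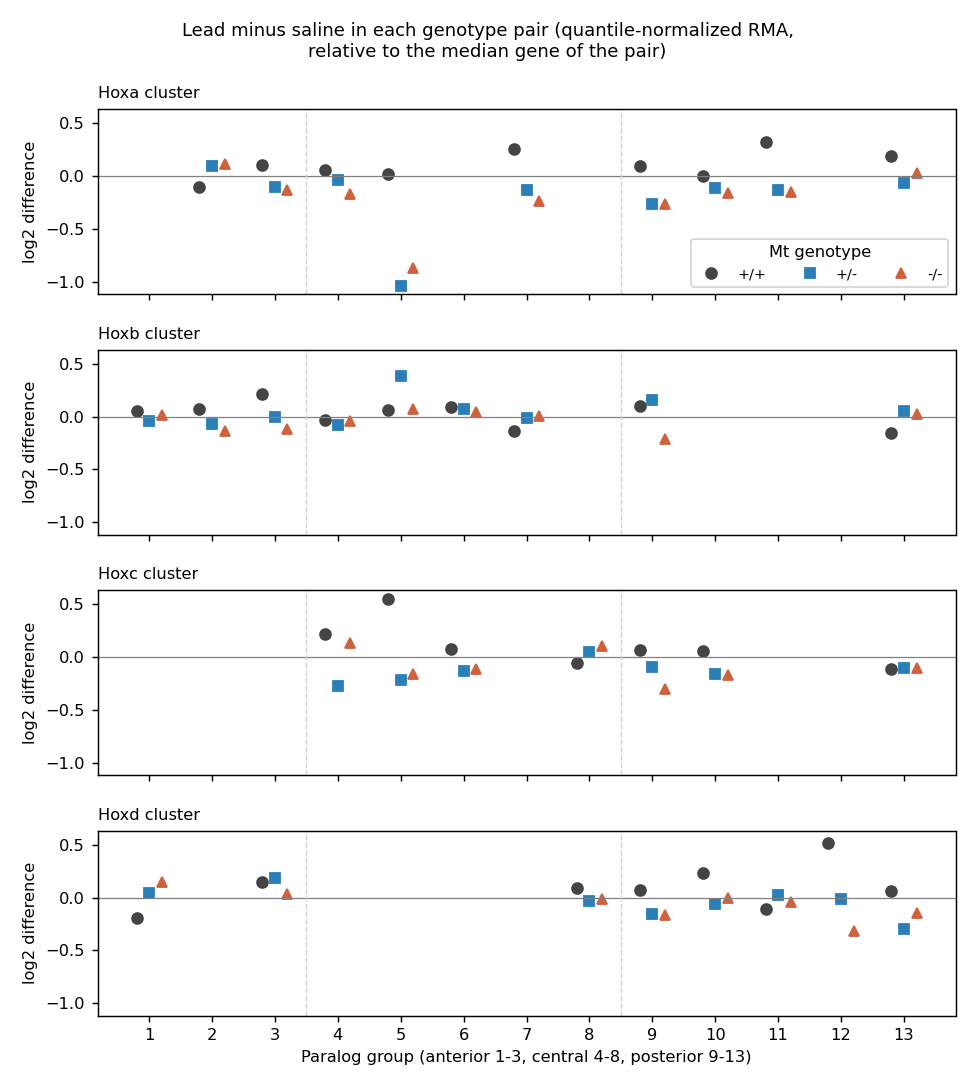
Lead minus saline for each member within each genotype (+/+, wild-type; +/-, heterozygous; -/-, Mt-KO), by paralog group (horizontal axis) and cluster (panels), in log2 units after quantile normalization and relative to the median gene of the pair; dashed lines divide anterior, central and posterior groups. Most points lie near 0, and the clearest departures are Hoxa5 in the heterozygous and Mt-KO pairs (-1.04 and -0.87), Hoxc5 in wild-type (0.55) and Hoxd12 in wild-type (0.51).

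Some dim Hox probe sets peaked in the heterozygous lead pool, and they were picked out after their values were seen. Over all members that pool was not favoured, since it was the highest for 4 of 33, against 22.6% of all genes. Of the 48 member probe sets, 5 had a highest pool more than 0.25 above the next, and 2 of these peaked in heterozygous lead, Hoxb5 1418415_at (by 0.40) and Hoxa5 1448926_at (by 0.27). Over all 34958 probe sets with 1 symbol, 67 (0.192%) stood out in that pool in this way. Neither the probe sets nor the gap of 0.25 were fixed beforehand, so these counts do not measure an excess. With GC-RMA the Hoxb5 gap was 0.02, and Hoxa5 1448926_at was highest in wild-type lead (2.79, against 2.77 in heterozygous lead). With every probe set in the fit, the lead coefficients of Hoxb5 1418415_at and Hoxa5 1448926_at were 0.17 and 0.04 (adjusted p = 1 for each). A second Hoxb3 probe set, 1456229_at, measured 7.74, 7.91, 7.84, 8.03, 7.68 and 7.69 with RMA in the order wild-type saline, wild-type lead, heterozygous saline, heterozygous lead, Mt-KO saline and Mt-KO lead. On the GC-RMA scale the same probe set measured 4.48, 5.23, 4.61, 7.63, 4.41 and 4.50. PLIER gave 550, 535, 434, 544, 450 and 491, with no such peak. Its lead coefficient was 0.12 with RMA (adjusted p = 1) and 1.29 with GC-RMA (SE 0.53, adjusted p = 0.541). Hoxb5 and Hoxb3 lie in the same cluster, at chr11:96303512-96306121 and chr11:96307101-96347930. The Hoxb3 span also holds Hoxb4 (chr11:96318267-96321638). The brightest Hoxb4 probe set was highest in Mt-KO saline (8.43) and measured 8.37 in heterozygous lead.

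**Figure D4:**
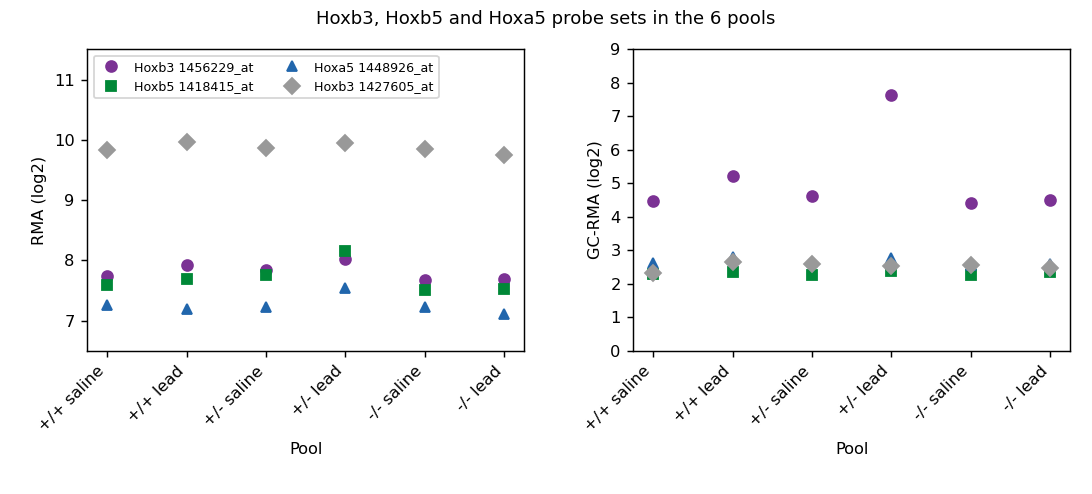
Values of 4 Hox probe sets in the 6 pools, with RMA on the left and GC-RMA on the right (log2 axes; levels of different probe sets cannot be set against each other). Heterozygous (+/-) lead is the highest RMA pool for Hoxb3 1456229_at, Hoxb5 1418415_at and Hoxa5 1448926_at, and on the GC-RMA scale Hoxb3 1456229_at reaches 7.63 there.

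Markers of other tissue were examined in the same pool. Of 19 hindbrain and spinal cord markers measured, 5 were highest in heterozygous lead, against 22.6% of all genes, and after quantile normalization 2, against 12.7%. They included Tph2, the serotonin-synthesizing enzyme of the raphe, which measured 7.14 there and 6.59 to 6.85 elsewhere. Slc6a5, the glycine transporter of inhibitory hindbrain and cord neurons, measured 9.47 there and 8.81 to 9.29 elsewhere. Other markers of the same list, Glra1, Slc18a3, Slc5a7 and Mnx1, were lowest in that pool with RMA. The list as a whole thus peaked there about as often as all genes did. Pituitary transcripts stood further out in that pool, where 4 of 6 were highest. Gh, 1 of 2 pituitary genes tested, was called for lead (0.85) and both were called for the heterozygote. After quantile normalization the Gh lead coefficient was 0.83 (adjusted p = 0.995), and neither gene passed for the heterozygote (adjusted p = 0.999 each). Besides Gh, Pomc measured 10.96 against 9.36 to 9.73 and Cga 9.40 against 8.07 to 8.15. The part of either tissue in the Hox values was not tested. Of the hindbrain and cord markers 6 were tested, and 0 were called for lead or genotype, with no member of the peripheral nerve list bright enough to test.

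The partners and regulators of Hox genes showed no call. Of 9 cofactor genes fixed for the report, 8 were measured and 7 tested, with 0 called for lead or genotype. Meis1 had the largest lead coefficient, 0.34 (adjusted p = 0.957), and Pbx3 the next by size, -0.14. Of 22 genes of retinoid signalling and upstream regulators, 18 were measured and 10 tested, with 0 called. Cyp26a1, which degrades retinoic acid, had a lead coefficient of -0.27 (adjusted p = 1) and measured 9.93 with saline and 9.95 with lead in wild-type pups, 10.20 and 9.94 in heterozygotes and 10.56 and 9.98 in Mt-KO pups. Like Hoxa5, it was highest in the Mt-KO and heterozygous saline pools. Aldh1a2, which makes retinoic acid, was 0.46 higher in Mt-KO (adjusted p = 0.12). Of 21 Polycomb and trithorax genes 20 were measured and 18 tested, with 0 called, and the largest lead coefficients were -0.27 in Men1 and 0.26 in Ezh2. Of 14 genes that flank the clusters 13 were measured and 8 tested, with 0 called, and of 8 noncoding genes within the clusters 2 were measured and 1, Hoxb5os, was tested and not called.

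Regions of the brain that normally lack Hox expression gave the only lead calls among the neural region lists. Of 16 midbrain and cerebellum markers 9 were tested, and 2 rose with lead, En2 by 0.55 (adjusted p = 0.0027) and Pax6 by 0.54 (adjusted p = 0.0036), both transcription factors of the midbrain or cerebellum. Zic2 fell in Mt-KO by 0.65. After quantile normalization none of these passed, with coefficients of 0.53, 0.52 and -0.66 (adjusted p = 0.895, 0.852 and 0.310). Of 15 forebrain markers 13 were measured and 9 tested, with 0 called. Among the tissues that could adhere to a dissected brain, 0 of 4 tested muscle, bone and skin markers, 0 of 4 meningeal markers and 0 of 1 blood marker were called for lead or genotype. The general markers of neurons and of glia, 5 tested in each list, also gave 0 calls.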

How the data were processed

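Total RNA of 6 pools was measured on 6 arrays. The authors deposited 18 columns, which hold these arrays summarised 3 times. The submitters' processing notes name Partek, RMA, GCRMA and PLIER without versions. As deposited, the RMA and GC-RMA columns are log2 values. The PLIER columns the authors deposited are linear intensities, used here as log2(value + 16). The labels name a whole-transcript labelling kit, but the probe set names belong to a 3' array. RMA was the main setting.

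Of 45101 probe sets, 34958 carried 1 gene symbol, and the 932 with several and the 9211 without any were left out. The GRCm38.p6 gene table held 34754 of them. The brighter 60% of genes were tested (limma 3.58.1, R 4.3.3) by lmFit and moderated eBayes with a trend, two-sided, at a Benjamini-Hochberg adjusted p of 0.05. A first model added genotype and treatment, a second crossed treatment with the count of intact alleles, and both had 2 residual degrees of freedom. With RMA and PLIER, limma used the spread typical of a gene's brightness in place of its own. No pool was replicated, so p-values measure departures from the model, not spread between animals. The procedure was tested on simulated data.

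Named with all values were the tested members and, per cluster, the member with the largest range among the rest; Hoxb6, Hoxd13 and single probe sets were named after their values were seen. Of other lists, the 2 genes with the largest lead coefficients or genes a result turns on were named. Members and lists were chosen with earlier results of these data known. Alternatives were the other summaries, quantile normalization, other filters, the mean over probe sets, no trend, no block, a threshold of 0.10 and leaving out pairs or arrays.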

Additional observations from a re-analysis of the deposited data

Results flagged for a closer look

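For Hoxd12, a dim gene, the lead difference varied with genotype in 1 of the fits. With no brightness filter its interaction with the number of intact alleles was 0.46 per allele (limma adjusted p = 0.0216), and after quantile normalization it was 0.43 and did not pass (adjusted p = 0.241). Each value rests on 1 pool, with lead minus saline of 0.55 in wild-type, 0.01 in heterozygotes and -0.37 in Mt-KO. On the GC-RMA scale the same differences were 0.09, 0.02 and 0.08, and the 6 values lay between 1.57 and 1.75.

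A second Hoxb3 probe set, 1456229_at, which is not the one that represents the gene, exceeded 5 on the GC-RMA scale in the wild-type lead pool (5.23) and in the heterozygous lead pool (7.63), above its values of 4.41 to 4.61 in the 3 saline pools. The third lead pool, Mt-KO, measured 4.50, within the saline values, and the lead coefficient on this scale did not pass (1.29, limma adjusted p = 0.541). PLIER values of the same probe set were 535 and 544 in those pools and 434 to 550 in the saline pools.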

How the results depend on the processing

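The number of members called for lead, 1 as reported, was 0 with GC-RMA, with PLIER, after quantile normalization, with no filter (with and without quantile normalization), with the mean over probe sets, without trend and without the genotype block. Leaving out 1 pair gave 0 to 1, and 1 only without the wild-type pair, where 2632 of 10916 genes were called. For Mt-KO, 1 as reported, it was 0 with GC-RMA, after quantile normalization, with no filter (with and without quantile normalization), with the mean over probe sets and without trend, and 2 with PLIER (Hoxa5 and Hoxa7). With a wild-type array left out, 1 array stands for that genotype. The Hoxa5 coefficient for Mt-KO was then 0.31 without saline and 1.04 without lead. The heterozygous count, 0 as reported, was 0 in every setting that kept all 6 arrays. Without wild-type lead, the median heterozygous coefficient was 0.12 over the tested members and -0.15 over all genes tested. The interaction count, 0 as reported, was 2 at a threshold of 0.10, 1 with PLIER (Hoxa5), 1 with no filter (Hoxd12) and 0 to 1 with 1 array left out. The heterozygous coefficient of Hoxa5 was -0.066 without the wild-type saline array and ranged to 0.66 without wild-type lead. Members whose lead and saline values did not overlap, 1 as reported, numbered 7 with GC-RMA, all higher with lead, and 3 with PLIER, all lower. The shares were 12.7% of all genes higher with GC-RMA and 2.05% lower with PLIER. Of the genes below the brightness limit they were 21.9% and 3.4%. In the brighter 60% the count was 0 of 8 members, against 3.86% of genes higher and 1.41% lower. Over all genes, lead calls were 13 as reported and 0 with GC-RMA, after quantile normalization or with no filter; Mt-KO calls were 47, and then 0, 1 and 6, with 68 for PLIER. The causes were not tested, except that fewer samples enter where arrays are left out. Lead and saline were paired by genotype throughout. No paired analysis was possible by replicate number because each combination of genotype and treatment has 1 pool, numbered 1 in every group. Low signal over background, on the GC-RMA scale, in the brightest probe set of every member but Hoxa5 and the number of arrays limit what could be detected.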
